A study of Mus musculus with 5 samples.

Results

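Gapdh, Pgam1 and Pdk1 are 3 genes of glucose use whose sites were followed by ATAC-seq, in which a transposase cuts and tags DNA where chromatin is open. They are 3 of the 8034 genes, and hold 7 of the 34714 short sites, in the deposited table of sites called transcription start sites, and were taken as every site carrying 1 of these symbols. They were chosen by their measured entries over time, with earlier results of these data known, so their values are a description and no test is given. The cells were C17.2, a long-established line of multipotent neural stem cells of the mouse, strain CD1 x C57BL/6. The 0 h library, the control, came from cells in DMEM/F12 growth medium with fetal bovine serum. The libraries of 0.5, 1, 1.5 and 2 h came from cells moved to Knockout DMEM with GlutaMAX and N2 supplements, which induces neural differentiation, so the medium change and the induction cannot be told apart. There was 1 library per time, 5 in all, with no replicate and thus no error between libraries.

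Glycolysis splits glucose into pyruvate in the cytosol and yields ATP and NADH, and neural progenitors are known for leaning on it more than neurons do. Gapdh encodes glyceraldehyde-3-phosphate dehydrogenase, the enzyme of the step that makes NADH, and its RNA is commonly used as a stable reference. Pgam1 encodes a phosphoglycerate mutase, which shifts the phosphate group of phosphoglycerate ahead of enolase. Pdk1 is not a glycolytic enzyme itself. It encodes pyruvate dehydrogenase kinase, isoenzyme 1, which switches off the pyruvate dehydrogenase complex and so holds pyruvate back from the mitochondrial tricarboxylic acid cycle, and in mammals it is a well-known target of the hypoxia-inducible factor HIF-1.

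Each value is a whole number per site and library, from 0 to 10 over the table, taken here to be how many intervals, or entries, of a library's BED file lie over the site. A site with 1 or more entries is called covered. A value of 0 says that no entry covered the site, not that its chromatin was closed. The libraries differed in their totals over all sites, from 42527 entries at 0 h to 65824 at 1.5 h, and in the share of sites covered, from 47.6% at 0 h to 66.9% at 1.5 h. Of 8 neural progenitor markers, 6 had a site and 2 of these, Hes1 and Sox9, were covered at 0 h, while Nes, Pax6, Msi1 and Notch1 were at 0. Of 5 neuronal markers 3 had a site and 1, Map2, was covered at 0 h. No astrocyte or endothelial marker had a site, 0 of the 3 oligodendrocyte lineage markers with a site were covered, and the 1 microglial marker with a site, Cx3cr1, was covered.

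The sites of the 3 genes lie at different places relative to the promoter. The single Gapdh site (ENSMUSG00000057666, chromosome 6, 125165018 to 125165020, GRCm38) lies inside the gene, 1448 bp from its outermost annotated 5′ end and 754 bp downstream of the start used in the RefSeq promoter table. The 2 Pgam1 sites (ENSMUSG00000011752, chromosome 19, 41911986 to 41911988 and 41912235 to 41912236) lie 116 and 364 bp inside the gene. The 4 Pdk1 sites (ENSMUSG00000006494, chromosome 2) span 419 bp across the 5′ end, from 71873070 to 71873488, with 2 of them upstream of the gene, at −143 and −32 bp from its 5′ end, and 2 inside it, at 132 and 270 bp. The Gapdh site is listed on the plus strand, opposite to its gene on the minus strand. The Pgam1 site at 364 bp and the Pdk1 sites at −143 and 270 bp are listed opposite to their genes too. The other sites are on the strand of their gene. Both Pgam1 sites held equal values in every library, and so did all 4 Pdk1 sites. The 3 genes therefore count as 3 regions and not as 7 independent sites. Whether these sites fall in exons, introns or UTRs was not annotated here.

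The promoter windows of the 3 genes, from 250 bases before to 50 after the start, are shown because the 2 upstream Pdk1 sites fall within the window of that gene, while the Pgam1 and Gapdh sites lie downstream of theirs. They are RefSeq sequences of build GRCm38.p6, read 5′ to 3′ along each gene: chr6:125165724-125166023 on the minus strand for Gapdh, chr19:41911621-41911920 on the plus strand for Pgam1 and chr2:71872974-71873273 on the plus strand for Pdk1. Capitals mark, on either strand, ACGTG, a core of the hypoxia response element to which HIF-1 binds, the other form of that core, which is GCGTG, and the GC box, which is GGGCGG.
Gapdh: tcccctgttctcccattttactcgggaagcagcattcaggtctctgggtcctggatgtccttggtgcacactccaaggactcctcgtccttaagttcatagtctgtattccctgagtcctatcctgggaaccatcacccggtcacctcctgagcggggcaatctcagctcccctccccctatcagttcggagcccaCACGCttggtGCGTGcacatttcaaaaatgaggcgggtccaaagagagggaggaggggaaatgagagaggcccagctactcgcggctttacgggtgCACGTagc
Pgam1: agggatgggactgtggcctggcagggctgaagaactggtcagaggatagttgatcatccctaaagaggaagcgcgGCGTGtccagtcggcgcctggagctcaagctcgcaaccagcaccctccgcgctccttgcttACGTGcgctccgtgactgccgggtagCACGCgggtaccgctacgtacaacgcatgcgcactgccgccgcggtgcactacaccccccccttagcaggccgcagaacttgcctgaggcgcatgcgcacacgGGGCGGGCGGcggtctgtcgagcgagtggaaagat
Pdk1: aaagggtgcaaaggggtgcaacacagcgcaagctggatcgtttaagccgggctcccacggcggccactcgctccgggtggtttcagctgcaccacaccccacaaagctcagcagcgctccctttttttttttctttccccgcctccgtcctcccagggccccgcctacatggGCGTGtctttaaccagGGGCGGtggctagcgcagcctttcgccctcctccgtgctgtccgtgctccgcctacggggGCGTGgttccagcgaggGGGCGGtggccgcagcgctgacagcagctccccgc
The Pdk1 window held GGGCGG 2 times and GCGTG 2 times, and no ACGTG. The Pgam1 window held GGGCGG 2 times, GCGTG 2 times and ACGTG 1 time. The Gapdh window held GCGTG 2 times and ACGTG 1 time, and no GGGCGG. Windows with these motifs are common: of 32851 RefSeq promoter windows of this length, 35.7% held GGGCGG, 32.4% GCGTG and 19.6% ACGTG. The motif CCAAT, in 37.4% of windows, TATAAA, in 13.6%, and the E-box CACGTG, which contains ACGTG and was in 7.15%, were in none of the 3 windows. GC content was 56.7% in the Gapdh window, 65.0% in that of Pgam1 and 66.0% in that of Pdk1. A motif match describes the sequence and does not show that a factor bound there. A further Pdk1 window of the table, around a start farther downstream, held none of the members' sites and is not shown.

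Gapdh held 6 entries at 0 h and 0 entries in each library from 0.5, 1, 1.5 and 2 h. Its only site lies outside its promoter window, so these are not values of the promoter itself. The change lay wholly between the first pair of libraries, and no entry returned over the later 1.5 h. On the log2(entries + 1) scale the ratio to 0 h was −2.81 at every later time, a size set by the added 1 and so not a bound. Moving both values by up to 1 entry each gives −3.00 to −1.58, so the direction does not hang on a single entry.

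Pgam1 held 2 entries at 0 h, then 4 at 0.5 h, 3 at both 1 h and 1.5 h, and 4 in the last library, at 2 h. All 4 later libraries were above the 0 h library, by 1 or 2 entries, and their order among themselves was not one of a steady rise. The log2 ratio to 0 h was 0.74 in the 0.5 h and 2 h libraries and 0.42 in the other two. Moving both values by up to 1 entry each gives 0 to 1.58 at 2 h and −0.42 to 1.32 at 1.5 h. The direction of the smaller values can thus turn when both libraries move by 1 entry. Scaled by each library's total, Pgam1 held 2.54 entries at 0 h against 2.46 at 1.5 h, where the log2 ratio was −0.032.

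Pdk1 held 4 entries at 0 h, then 1 at 0.5 h and 2 in each library from 1, 1.5 and 2 h. All 4 later libraries were below the 0 h library, and that of 0.5 h was the lowest. The log2 ratio was −1.32 at 0.5 h and −0.74 at the other 3 times. With both values moved by up to 1 entry each, it was −2.58 to −0.42 at 0.5 h and −1.58 to 0 at the others.

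**Figure D1:**
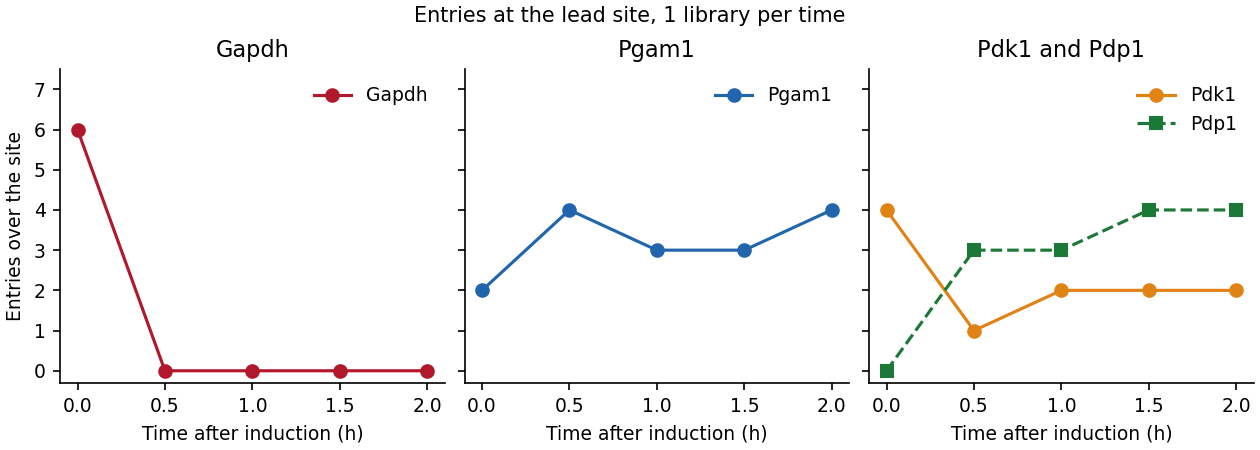
Entries over the lead site of each gene (y axis, 1 library per point) against the time after induction in hours (x axis), with Pdp1, the phosphatase gene that opposes Pdk1, as a dashed line. Gapdh goes from 6 entries to 0, Pgam1 from 2 to 3 or 4, Pdk1 from 4 to 1 or 2 and Pdp1 from 0, below which it could not go, to 3 or 4.

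These values were set beside those of all 8034 genes, each given the value of its lead site, the one whose mean over time was highest. Gapdh was at least 2-fold lower than at 0 h at every later time, a call made on 2.15, 4.87, 1.80 and 3.45% of all genes in the order of time. Pdk1 passed the same fold at 0.5 h and not at the other times. Pgam1 passed the 2-fold difference at none, where 8.20, 4.69, 11.5 and 9.56% of genes in the order of time passed it upwards. The comparisons share the 0 h library, so a high or low value there enters all 4 of them.

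Gapdh stood at or near the lower end of the table at each time. No other gene had a log2 ratio as low at 0.5 h, but a gene with fewer than 6 entries at 0 h could not reach it. At 1 h, 5 genes were at or below Gapdh, itself included, and at 1.5 h and 2 h 2 genes were. Of the 81 genes with 6 entries at 0 h, the median went to 5, 4, 5 and 4 entries over the later times, and Gapdh was the 1 gene at 0 at each of these times (1.23%). Among the 5845 genes covered at 0 h, 1.35, 4.19, 0.701 and 1.39% were uncovered at the later times in order. Coverage at 0 h followed by 0 entries in all 4 later libraries was found in 13 of 5845 covered genes (0.222%). Of these 13 genes, 8 had 1 entry at 0 h, 2 had 2, 1 had 3, 1 had 4 and Gapdh had 6. By site, 48 sites were covered at 0 h alone, 22 of them with 1 entry, and the Gapdh site was the 1 with more than 4.

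Genes covered in a single library were found at other times too. There were 16 covered at 0.5 h alone, with up to 5 entries (Ubtd1), 3 at 1 h alone with 1 entry each, 67 at 1.5 h alone with up to 5 entries (Nfat5) and 44 at 2 h alone with up to 3 entries. The median was 1 entry in each of these sets. Ubtd1 and Nfat5 were the 2 genes with 5 entries in a single later library.

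Loss of a covered site was more frequent downstream than near the 5′ end. Among 674 sites 1300 to 1600 bp downstream of the annotated 5′ end, 43.0% were covered at 0 h, and 52.4, 46.4, 61.7 and 60.7% in the later libraries in the order of time. Of the 290 covered at 0 h, 9 were uncovered at 0.5 h (3.10%), 24 of them (8.28%) at 1 h, 3 of them (1.03%) at 1.5 h and 10 of them (3.45%) at 2 h, the Gapdh site among them each time. By its start in the promoter table Gapdh would lie at 754 bp, but all sites were placed here by the annotated 5′ end. The set of 600 to 900 bp thus does not hold the Gapdh site. Of the 864 sites covered at 0 h that lie 600 to 900 bp downstream of that end, 2.31, 10.3, 1.74 and 4.40% were uncovered at the later times in order. Of the 9478 covered between 250 bp upstream and 400 bp downstream, where the Pgam1 and Pdk1 sites lie, 1.57, 4.67, 0.443 and 0.802% were. The part of position in the Gapdh values was not tested. Gapdh also rests on a single site: of 1864 genes with 1 site and coverage at 0 h, 6 were uncovered in all later libraries (0.322%), against 7 of 3981 genes with 2 or more sites (0.176%). Loss in any later library went the other way, with 4.67% of the genes with 1 site and 5.17% of those with more. The RefSeq gene table lists 3 pseudogenes named after Gapdh and 2 named after Pgam1, and none of them carries a site here. The sources used here do not say how reads that map to several such copies were treated, and their part in the values was not tested.

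For Pdk1, 772 genes had 4 entries at 0 h. Of these, 18 (2.33%) had 1 or fewer at 0.5 h, as Pdk1 did, and 35 (4.53%) had 2 or fewer in all 4 later libraries. At single times, 2 or fewer entries were held by 14.0, 22.7, 20.3 and 30.2% of the 772 in the order of time. The value of Pdk1 at 2 h was thus shared by many genes that began level with it, and its value at 0.5 h by few.

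For Pgam1, 2143 genes had 2 entries at 0 h, and 245 of them (11.4%) had 3 or more in all 4 later libraries. At single times, 3 or more were held by 36.9, 28.5, 40.2 and 31.9% of the 2143 in the order of time. At 2 h, 230 of the 2143 (10.7%) had 4 or more. Over the whole table, 773 genes (9.62%) had more entries than at 0 h in all 4 later libraries, as Pgam1 did, and 555 (6.91%) had fewer in all 4, as Gapdh and Pdk1 did. At least 2-fold lower values in all 4 were found for 26 genes (0.324%), Gapdh among them.

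**Figure D2:**
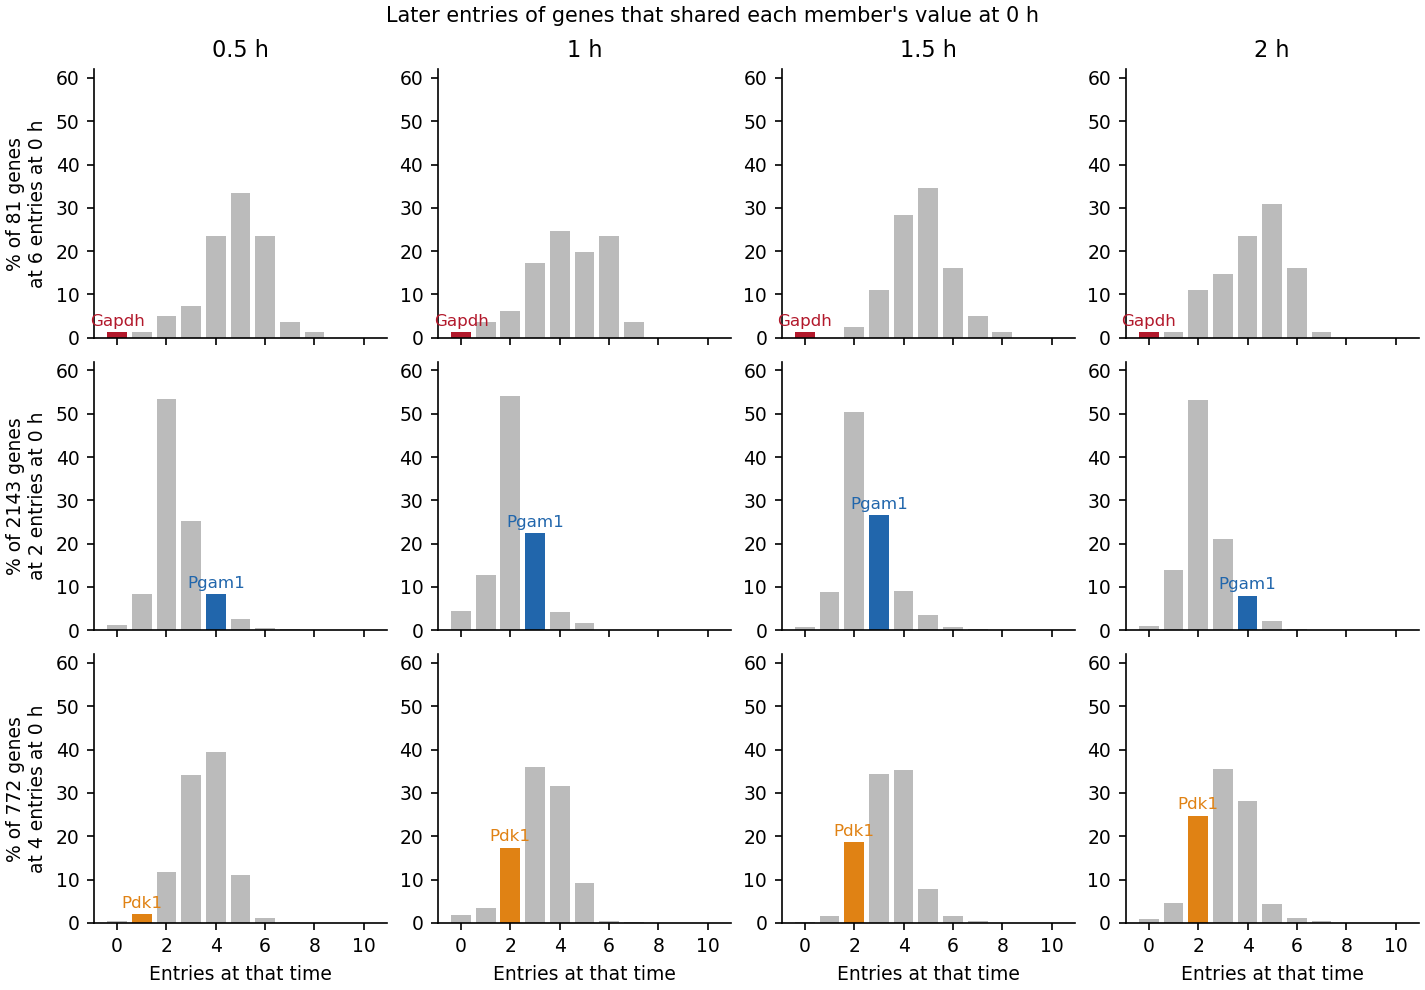
Percentage of genes (y axis) by their entries at each later time (x axis), for the 81 genes at 6 entries at 0 h (top row), the 2143 at 2 entries (middle row) and the 772 at 4 entries (bottom row), with the bar that holds the named gene in colour. Gapdh is alone in the bar at 0 in all 4 panels of the top row, Pgam1 lies to the right of the tallest bar and Pdk1 to the left of it.

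Gapdh was compared with every other site on chromosome 6 within 100 kb of it. These were 4 sites of 3 genes, 1 upstream of Chd4, 2 upstream of Nop2 and 1 upstream of Mrpl51, so 3 of the 9 other protein-coding genes that the RefSeq table places in this window had a site. Mrpl51, a mitochondrial ribosomal protein gene whose site is nearest, 26.8 kb away (125191868 to 125191871), held 4, 4, 3, 5 and 4 entries in the order of time. It stayed within 1 entry of its 0 h value. Nop2, which encodes a nucleolar ribosomal RNA methyltransferase, held 3, 2, 3, 2 and 3 entries in the order of time at both of its sites, 33.2 kb away (125131818 to 125131821 and 125131848 to 125131851). It also stayed within 1 entry of its start.

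Chd4, the ATPase of the NuRD chromatin remodelling complex, is the farthest of the 3, at 69.1 kb (125095924 to 125095928). It held 5 entries in both the 0 h and the 0.5 h library, 2 at 1 h, 4 at 1.5 h and 0 at 2 h. At 2 h Chd4 and Gapdh were both at 0, while at 0.5 h Chd4 held its 0 h value and Gapdh was at 0. The log2 ratio at 0.5 h was 0 for Chd4, −0.42 for Nop2 and 0 for Mrpl51, against −2.81 for Gapdh. None of the 4 neighbouring sites was covered at 0 h alone. No site lay between Nop2 and Gapdh or between Gapdh and Mrpl51, so the extent of the region that was at 0 after 0 h is not resolved. With single libraries no test of these differences was possible.

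**Figure D3:**
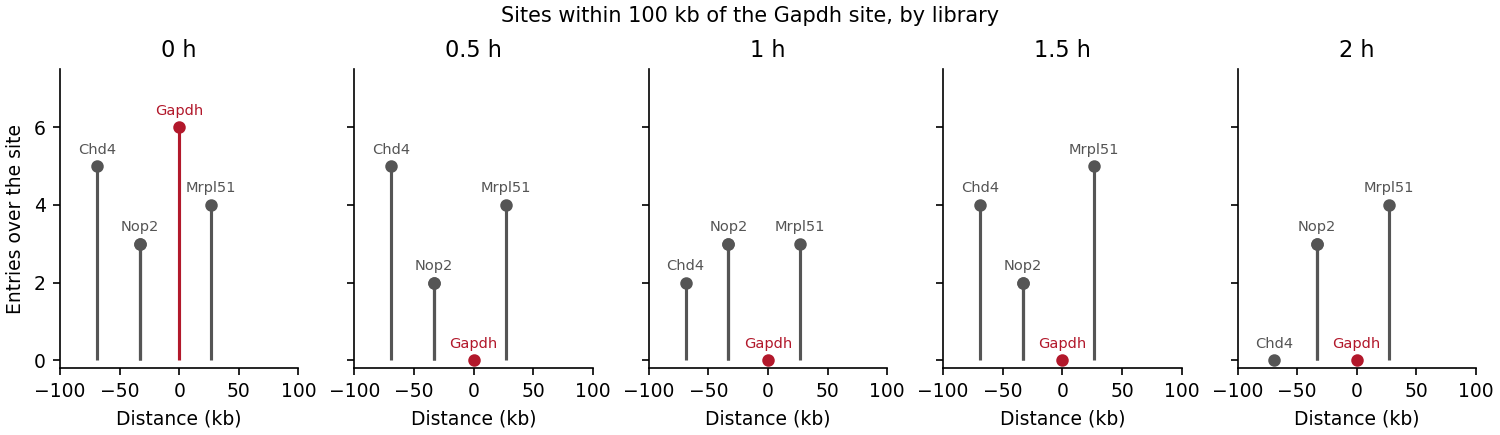
Entries over each site (y axis) by its distance in kb from the Gapdh site (x axis), 1 panel per library, with Gapdh in red and the neighbouring sites in grey. Gapdh is at 6 entries in the 0 h panel and at 0 in the other panels, Nop2 stays at 2 or 3 and Mrpl51 at 3 to 5, and Chd4 reaches 0 at 2 h.

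The same window held 13 sites of 4 genes around Pgam1 and 2 sites of 1 gene around Pdk1. Near Pgam1, Mms19, which serves in iron-sulfur protein assembly, held 4, 5, 4, 5 and 4 entries in the order of time at 69.2 kb. Ubtd1, a ubiquitin-domain gene at 70.1 kb, held 0 entries but for 5 at 0.5 h. The lead sites of Frat1 and Frat2, genes of GSK3-binding proteins of the Wnt pathway, held 2, 2, 2, 3, 2 and 3, 3, 2, 2, 3 entries. None of these 4 neighbours had more entries than at 0 h in all later libraries, as Pgam1 had. Near Pdk1, Itga6, an integrin subunit gene at 85.9 kb, held 1, 2, 2, 5 and 3 entries, above its start where Pdk1 was below.

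Genes of glucose and pyruvate use came from 3 lists, of which 20 of 46 members had a site in the table, with Gapdh, Pgam1 and Pdk1 among them. Of 21 glycolytic enzyme and glucose transporter genes, 9 had a site. Between 0 h and 2 h, 2 of the 9 gained entries, 4 dropped and 3 did not change in number, and the median log2 ratio was 0, as it was over all 8034 genes, of which 25.7% had more and 22.9% fewer. The neuronal enolase gene Eno2 held 3, 3, 2, 1 and 1 entries. Pkm, the pyruvate kinase gene, alternated, with 1, 2, 0, 3 and 0 entries in the order of time. Like Gapdh, it rests on a single site, as do Gpi1 and Aldoa of this list, which were covered in every library.

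Ldha, the lactate dehydrogenase gene, had the same 6 entries at 0 h as Gapdh and then held 4, 6, 5 and 5. It was thus covered in every library in which Gapdh was at 0. Gpi1, of glucose-6-phosphate isomerase, held 2 entries in all 5 libraries. Aldoa, an aldolase gene, held 3, 3, 4, 4 and 3. The glucose transporter gene Slc2a1 held 1 entry at 0 h and 2 in each later library, and was with Pgam1 the other gene of this list above its 0 h value at every later time. Slc2a3, a neuronal glucose transporter gene, held 0 throughout.

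Of 11 genes of the pyruvate dehydrogenase complex and its control, 5 had a site, and in the 2 h library 1 was above its 0 h value, 2 were below it and 2 were level. Pdp1 encodes the phosphatase that removes the phosphate groups placed by Pdk1 and switches the complex on. It held 0 entries at 0 h, 3 at both 0.5 h and 1 h, and 4 at both 1.5 h and 2 h, equally at its 5 sites, which lie 230 to 330 bp inside the gene. The kinase gene Pdk1 and the phosphatase gene Pdp1 were thus on opposite sides of their 0 h values at all 4 later times. Pdp1 was at 0 at 0 h and could not go lower, and Pdk1 was chosen by its values. The 4 comparisons share the 0 h library, and the contrast was not tested. Of 2189 genes uncovered at 0 h, 37 (1.69%) held 3 or more entries in all 4 later libraries, Pdp1 among them. Pdk3, a further kinase of the complex, held 2 entries in all 5 libraries. Dlat, the E2 subunit, held 2, 3, 3, 2 and 2 entries, and Dld, the E3 subunit shared with other dehydrogenases, held 5, 4, 3, 3 and 2.

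Of 14 regulator and side-branch genes, 6 had a site, and in the 2 h library 2 were above their 0 h value, 3 below and 1 level. Pfkfb2 and Pfkfb3 encode enzymes that set the level of the regulatory fructose bisphosphate that activates phosphofructokinase and is distinct from its product. Pfkfb2 held 5, 3, 3, 6 and 6 entries and Pfkfb3 3, 3, 2, 4 and 4, each above its 0 h value at 1.5 h and 2 h and not before. Scaled by library total both were below it, Pfkfb2 with 6.34 at 0 h, 4.92 at 1.5 h and 5.45 at 2 h, and Pfkfb3 with 3.81, 3.28 and 3.63. Slc16a1, a lactate and pyruvate transporter gene, held 5, 6, 3, 3 and 3 entries, and Mpc1, a subunit of the mitochondrial pyruvate carrier, 4, 4, 3, 3 and 3. Minpp1, an inositol polyphosphate phosphatase gene, held 4, 4, 2, 3 and 3. Slc16a3, a lactate exporter gene, held 0 throughout.

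Over the 3 lists together, 6 of 20 genes were above and 5 below their 0 h value at 0.5 h, 5 above and 10 below at 1 h, 7 above and 8 below at 1.5 h, and 5 above and 9 below at 2 h. Gapdh, Pgam1 and Pdk1 are among the 20 and were chosen by their values. Without them, of 17 genes 5 were above and 3 below at 0.5 h, and 4 and 8 at 1 h. The counts were 6 and 6 at 1.5 h and 4 and 7 at 2 h. Of all genes, 28.1% were above and 15.6% below at 0.5 h, 20.6% above and 21.9% below at 1 h, and 31.3% above and 17.8% below at 1.5 h. Equal numbers made up 6 of the 20 at 2 h and 51.4% of all genes. Scaled by library total, 5, 5, 3 and 3 of the 20 were above their 0 h value in the order of time and 13, 13, 15 and 15 below. The same scaling put 23.1, 20.6, 19.8 and 22.7% of all genes above and 54.5, 55.0, 60.1 and 56.7% below. A gene at 0 at 0 h cannot fall, and 17 of the 20 were covered at 0 h. Of the 5845 genes covered at 0 h, scaling put 25.1, 24.4, 17.4 and 22.1% above and 74.9, 75.6, 82.6 and 77.9% below.

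**Figure D4:**
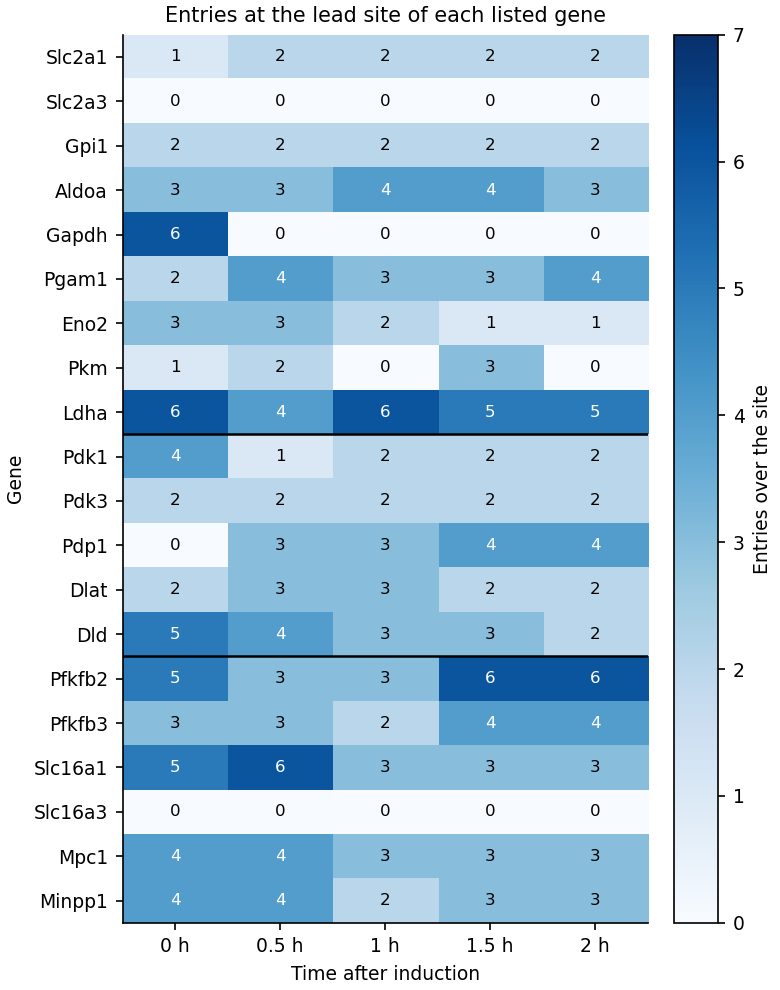
Entries at the lead site of the 20 listed genes (rows, in the order of the lists of glycolysis, pyruvate dehydrogenase and regulators, split by lines) in each of the 5 libraries (columns), with the number printed in each cell. Gapdh goes from 6 to 0 while Ldha, also at 6 at 0 h, stays at 4 to 6, and Pdp1 is at 0 at 0 h alone.

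The genes with the most similar values were sought by the sum over the 5 libraries of the absolute differences in entries. No gene had the values of Gapdh. The nearest was 4930408O17Rik, with 4 entries at 0 h and 0 later, at a sum of 2. Cic, a transcriptional repressor gene, followed at a sum of 3 with 7, 1, 1, 0 and 0 entries, level with Strn4, a striatin gene, at 3 and 0 later. Rgl3 and Slc23a2, at a sum of 4, held 2 entries at 0 h and 0 later. The values of Pgam1 were shared in full by 6 genes, of which the first 5 by alphabet are 1810013L24Rik, Ccnj, Gm32699, Pou3f2 and Rala. Those of Pdk1 were shared by 1 gene, Dpysl2, which encodes an axon growth protein, and 29 genes differed from it by a sum of 1, among them Akain1, Cbx1, Cep131 and Epb41l1.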

How the data were processed

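ATAC-seq libraries of C17.2 cells at 5 times, 1 per time, were described from the 1 deposited table. Per the submitters' processing notes, Bowtie2, MACS2 and deepTools were used with build GRCm38 (mm10), with no version, setting or order. The sources used here do not give duplicate handling, transposase shift, peak threshold or the origin of the site list. The deposited values are whole numbers per site and library. Among 56425 neighbouring pairs within 200 bp in which a site held at least 2 entries, 93.5% were equal, and in 98.6% of the 3659 unequal pairs 1 member was 0, so they were read as stacked BED entries and not as reads. Read depth, and thus the precision of a value, is unknown.

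Python 3.11.15 with pandas 2.3.3 was used. A gene took the values of its lead site, the one whose mean over time was highest, ties going to the site nearest the 5′ end. Ratios are on log2(entries + 1), which understates differences of low genes. With 1 library per time no test, SD or p-value was possible. The design allowed for read counts, and with the unit found no count model was used. Counting at the 2-fold difference was tested on simulated data. Gene ends came from RefSeq (GRCm38.p6). Genes were named by rule: the members, all genes within 100 kb, listed genes that differed 2-fold from 0 h or held 1 value, and up to 5 most similar genes. Other listed genes, the genes covered in a single library and GCGTG were added after their values or sequences were seen. The members and lists were chosen with earlier results of these data known.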

Additional observations from a re-analysis of the deposited data

How the results depend on the processing

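No paired analysis was possible because each time had 1 library. With no replicate, a ratio was taken as unmoved where it stayed within a set range. That range is given by moving both of its values by up to 1 entry each. Of 60 alternative values of the members' log2 ratios, 52 did so. That count includes the values from other choices of site, which could not differ. The 8 outside the range were all of Gapdh. A pseudocount of 0.5 gave Gapdh −3.70 at each later time and scaling by library total gave −3.11, both farther from 0. Scaling turned the sign of Pgam1 at 1.5 h, to −0.032, and it lowers the later libraries relative to that of 0 h, which has the smallest total. The median log2 ratio of the genes covered at 0 h, as the members are, then was −0.29, −0.06, −0.42 and −0.33 in the order of time, and that of all genes −0.08, −0.05, −0.17 and −0.25. Taking the highest, the mean or the nearest site of a gene changed no member, since the sites of each agree.

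Restricting to genes whose mean over time reached that of the median gene left 314 at least 2-fold higher and 59 lower at 0.5 h (659 and 173 over all genes), 205 and 157 at 1 h (377 and 391), 369 and 62 at 1.5 h (921 and 145), and 295 and 152 at 2 h (768 and 277). At 1 h this turned the order of higher and lower. No gene covered at 0 h alone passed that restriction, Gapdh included, against 13 over all genes. Their 0 entries in 4 of the 5 libraries keep that mean low, so the restriction cannot inform on these genes. Calling coverage from 2 entries gave 43. A window of 250 kb round Gapdh added 1 site covered at 0 h alone, of Ptms with 1 entry.

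Scaling by library total moved the list counts, as covered genes with equal numbers become lower and some higher ones, such as Pfkfb2 and Pfkfb3, turn to lower. At 2 h the pyruvate dehydrogenase list had 4 genes lower in place of 2, and the regulators 0 higher and 5 lower in place of 2 and 3. Over the 3 lists it gave 13 lower in place of 5 at 0.5 h, 3 higher and 15 lower in place of 7 and 8 at 1.5 h, and 3 higher and 15 lower in place of 5 and 9 at 2 h. With the site nearest the 5′ end, 1 regulator gene was higher at 2 h in place of 2.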
